A study of Mus musculus with 3 samples.

Results

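The gene Foxn1 and 5 genes of the cortical selection program, Psmb11, Prss16, Tbata, Cd83 and Ly75, were followed through single-cell RNA sequencing of the nonhematopoietic stroma of the aged mouse thymus. They are 6 of 32293 counted features, chosen by name for their known place downstream of or beside Foxn1, and each symbol matched 1 feature. Libraries of unique molecular identifiers (UMIs), single molecules tagged before amplification, were made, all 3 from untreated 20-month-old C57BL/6 mice. Foxn1Lin female and Foxn1Lin male carry a Foxn1 lineage trace, in which Cre made under Foxn1 control permanently switches on a tdTomato reporter, so the trace depends on where and when that driver was active. WT male is wild type. The labels describe 10 to 15 pooled thymi per sample and call the animals female for every library, while the sex field gives male for 2 of them. They also give WT male as CD45- in its title and as CD45-PECAM1+ in its cell type field. It held 871 epithelial and 859 endothelial barcodes by the rules below. Each group had 1 library, so no difference between libraries could be tested.

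Foxn1 is the transcription factor on which thymic epithelial cells (TEC) depend for their differentiation, and its loss leaves mice without hair and without a functional thymus. In cortical TEC it switches on genes that feed positive selection, the step in which developing T cells are kept when their receptor binds a self peptide on MHC. Psmb11 encodes the catalytic beta subunit of the thymoproteasome, which cuts peptides for MHC class I. Prss16 encodes a thymus-specific serine protease that takes part in the MHC class II peptide supply. Ly75 encodes DEC-205, an endocytic receptor of cortical TEC and dendritic cells. Cd83 encodes a surface protein that stabilizes MHC class II on TEC and is also made by activated dendritic and B cells. Tbata encodes a protein of thymic epithelium, brain and testis.

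All 6 genes lie on separate stretches of GRCm38, in the GENCODE vM21 annotation. Foxn1 (ENSMUSG00000002057) is on chromosome 11 from 78357577 to 78386558 on the minus strand, with up to 9 exons in a principal transcript. Psmb11 (ENSMUSG00000072423) is on chromosome 14 from 54621433 to 54629556 on the plus strand and has 1 exon. Prss16 (ENSMUSG00000006179) is on chromosome 13 from 22002173 to 22009742, minus strand, with 12 exons. Tbata (ENSMUSG00000020096) is on chromosome 10 from 61171954 to 61188841, plus strand, with 10 exons. Cd83 (ENSMUSG00000015396) is on chromosome 13 from 43784775 to 43803132, plus strand, with 5 exons. Ly75 (ENSMUSG00000026980) is on chromosome 2 from 60292103 to 60383303, minus strand, with 35 exons. The antisense gene Gm13571 overlaps Ly75, and antisense reads were tallied apart by the authors' software (3.7 to 9.6% of reads).

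RefSeq promoters of GRCm38.p6, each 300 bases around the annotated start, were matched for 4 of the 6 genes (Foxn1, Psmb11, Tbata and Ly75) and searched for GACGC, the core of the known Foxn1 motif, on both strands. Psmb11 is shown because its promoter held the motif, and Tbata because its levels were among the closest to those of Psmb11 (below) while its promoter held none. Letters in capitals mark the motif, which reads GCGTC where it lies on the opposite strand. The Psmb11 sequence is chr14:54625060-54625359 (plus strand) and the Tbata sequence chr10:61171714-61172013 (plus strand), both written 5′ to 3′. The RefSeq start of Psmb11 lies inside the longer GENCODE span given above, so its promoter window does too.

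Psmb11: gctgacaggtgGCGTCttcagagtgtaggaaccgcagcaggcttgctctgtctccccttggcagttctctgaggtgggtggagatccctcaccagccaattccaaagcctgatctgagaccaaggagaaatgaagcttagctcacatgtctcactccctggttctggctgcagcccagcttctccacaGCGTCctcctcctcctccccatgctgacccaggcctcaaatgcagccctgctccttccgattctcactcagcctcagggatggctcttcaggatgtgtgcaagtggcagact

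Tbata: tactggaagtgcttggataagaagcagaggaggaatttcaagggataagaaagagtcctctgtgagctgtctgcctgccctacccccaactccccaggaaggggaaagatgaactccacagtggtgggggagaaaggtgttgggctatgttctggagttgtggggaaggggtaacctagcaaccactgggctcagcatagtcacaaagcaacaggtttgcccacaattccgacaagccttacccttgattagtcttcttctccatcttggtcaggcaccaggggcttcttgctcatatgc

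The Psmb11 promoter held 2 matches, whose first bases lie at -239 and -62 from the annotated start, both on the minus strand. The promoters of Tbata, Foxn1 and Ly75 held 0. Among all 32851 promoters of the same length, 27.2% held at least 1 match, so a match is common and is given as a description of the sequence.

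The called barcodes numbered 3583 to 8616 a library, with 33386621 to 61258534 UMIs in all and a median of 4675 to 7947 UMIs per barcode. UMIs outside called barcodes made up 9.46 to 26.5% of a library, with the highest share in Foxn1Lin female. The libraries shared 3 to 14 barcode sequences pairwise. A barcode counted as TEC with at least 2 UMIs of the epithelial adhesion gene Epcam, as endothelial (EC) with at least 2 of Pecam1, as fibroblast (FB) with at least 2 of Pdgfra and as mural with at least 5 of Rgs5 and Acta2 together. Barcodes of 2 or more classes were dropped. This gave 475, 427 and 871 TEC barcodes in Foxn1Lin female, Foxn1Lin male and WT male, an order kept in all that follows. The 6 TEC markers other than Epcam, which set the class, were all detected in each TEC group and summed to 7584, 7445 and 6228 counts per 1000000 UMIs (CPM), against 89.7 to 403 in the other classes. The dropped barcodes held much of the members' RNA, from 18.4% (Cd83, Foxn1Lin female) to 39.9% (Foxn1, Foxn1Lin male) of a gene's UMIs in called barcodes.

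Every member was higher in TEC than in the stromal classes in every library. Foxn1 stood at 90.1 CPM of summed UMIs in TEC of Foxn1Lin female, 46.0 in Foxn1Lin male and 67.2 in WT male. Its EC levels were 4.13, 0.394 and 0.934 CPM, and in FB and mural barcodes it lay between 0 and 1.96 CPM. The TEC and stromal values did not overlap. The 2 zeros among them are limits, since 0 UMIs in FB of Foxn1Lin male allow up to 0.428 CPM, and 0 in mural barcodes of WT male up to 1.505 CPM (upper bounds of exact 95% Poisson intervals, counting error only).

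**Figure D1:**
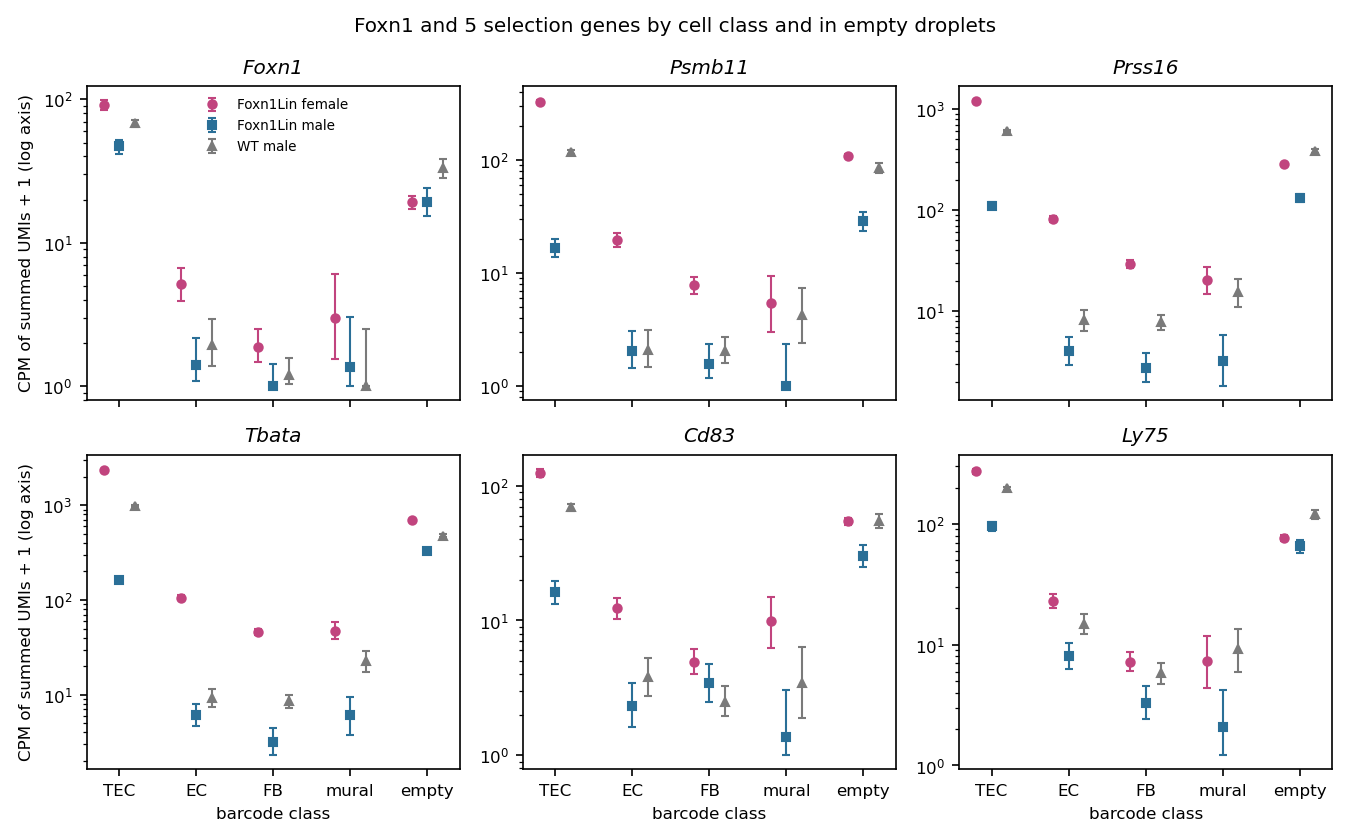
CPM of summed UMIs plus 1 (log axis) of the 6 genes in TEC, EC, FB and mural barcodes and in empty droplets, with 1 point per library and exact 95% Poisson intervals. TEC points lie above all EC, FB and mural points of their library, while for Psmb11, Prss16, Tbata and Cd83 the TEC point of Foxn1Lin male lies below its own empty droplets.

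Among the genes of antigen processing, Psmb11 was at 323, 15.6 and 117 CPM in TEC and at 18.6, 1.05 and 1.07 CPM in EC. Prss16 was at 1193, 110 and 603 CPM in TEC and at 80.0, 3.02 and 7.07 CPM in EC. In both genes the EC value of Foxn1Lin female stood above that of the other libraries, and for Psmb11 it was higher than the TEC value of Foxn1Lin male. Tbata was at 2378, 163 and 980 CPM in TEC and at 105, 5.13 and 8.28 CPM in EC. For the surface proteins, Cd83 reached 123, 15.2 and 68.1 CPM in TEC against 11.4, 1.31 and 2.80 in EC, and Ly75 reached 272, 94.5 and 196 CPM against 22.0, 7.10 and 13.9. Within each library every member was higher in TEC than in EC.

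Counts summed per library and class were compared with the edgeR quasi-likelihood test with the library as block, which sets TEC against another class within each library and treats the 3 libraries as replicates although they differ in genotype and sex. All 6 members passed a Benjamini-Hochberg adjusted p of 0.05 as higher in TEC than in EC, where 30.8% of 16617 genes were called higher. The log2 fold change over EC was 5.17 ± 0.48 (SE) for Foxn1 (adjusted p = 2.96e-05), 4.40 ± 0.52 for Psmb11, 4.63 ± 0.49 for Prss16, 5.00 ± 0.48 for Tbata, 3.46 ± 0.48 for Cd83 and 3.36 ± 0.22 for Ly75. Against FB, where 29.5% of genes were called higher in TEC, all 6 passed with log2 fold changes from 4.19 (Cd83) to 7.38 (Foxn1). Against mural barcodes, where 26.3% were called, all 6 passed from 3.94 (Cd83) to 6.44 (Foxn1). The members' median log2 fold change was 4.51, 5.61 and 5.26 over EC, FB and mural barcodes, beside 0.07, 0.05 and 0.09 over all genes tested.

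Other epithelial genes went the same way less uniformly. Of the 5 identity factors Pax1, Pax9, Eya1, Hoxa3 and Trp63, transcriptional regulators of thymic and epithelial development, 4 were higher in TEC than in each of EC, FB and mural barcodes. Pax9 had the greatest of these log2 fold changes over EC, 5.47 ± 0.51. Hoxa3 was lower in TEC than in EC, by a log2 fold change of -0.77 ± 0.17. Among 8 genes of the selection niche, 5 were higher and 3 lower in TEC than in EC. Over all 16617 genes tested, 5121 were called higher and 4424 lower there. Ccl25, a chemokine that attracts thymocyte progenitors, was higher by 3.91 ± 0.41 on the log2 scale. Kitl, the ligand of Kit on progenitors, was lower in TEC by -4.06 ± 0.20, Dll4, the Notch ligand of T cell commitment, by -3.80 ± 0.65, and Cxcl12, a chemokine for the same progenitors, by -2.34 ± 0.24. Of the 10 other proteasome beta genes Psmb1 to Psmb10, 5 were higher in TEC than in EC and 1, the immunoproteasome gene Psmb8, was lower, with log2 fold changes between -0.51 and 0.68 for the list. Psmb11, at 4.40 ± 0.52, lay far outside that range.

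The share of barcodes with at least 1 UMI was compared after each barcode was thinned to 2000 UMIs, since TEC barcodes were deeper (median 11005, 12461 and 16229 UMIs) than EC barcodes (3892, 7380 and 7029). Of 475, 427 and 871 TEC barcodes, 462, 410 and 849 were deep enough. Foxn1 was then found in 10.8%, 9.27% and 8.83% of TEC barcodes, against 0.498%, 0.126% and 0.122% of EC barcodes. Unthinned, it was found in 39.8%, 29.0% and 39.4% of TEC barcodes. The intervals at 2000 UMIs (exact binomial) were 8.14 to 14.0%, 6.64 to 12.5% and 7.01 to 10.9%, and they overlapped. Thinned to 4000 UMIs, the shares were 21.1%, 15.8% and 16.9%, so they depend on the depth chosen.

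The targets differed more between libraries in the same measure. Psmb11 was found in 13.9%, 1.95% and 6.71% of thinned TEC barcodes, and the interval of Foxn1Lin male, 0.846 to 3.81%, did not reach the others. In EC it was found in 2.05%, 0.378% and 0.244%, so the TEC share of Foxn1Lin male was within the range of a class that should lack the gene in another library. Tbata was found in 29.9%, 10.0% and 20.3% of TEC barcodes and in 10.2%, 0.631% and 1.71% of EC barcodes. In Foxn1Lin female the EC share of Tbata was therefore as high as the TEC share of Foxn1Lin male. Cd83 had TEC shares of 11.3%, 1.95% and 7.07%, Prss16 of 21.4%, 7.56% and 12.2%, and Ly75 of 24.5%, 14.9% and 21.6%.

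RNA outside cells was measured in empty droplets, barcodes that were not called and held 20 to 500 UMIs. Psmb11 was at 107, 27.7 and 84.5 CPM in empty droplets, Prss16 at 284, 130 and 385, and Tbata at 695, 326 and 477. Foxn1 was at 18.2, 18.3 and 32.0 CPM, Cd83 at 53.2, 29.2 and 53.5, and Ly75 at 76.0, 64.5 and 119. Of the 18 member levels in TEC, 14 exceeded the empty droplets of their library. The 4 that did not were Psmb11, Prss16, Tbata and Cd83 in Foxn1Lin male. In EC, FB and mural barcodes every member was below its empty droplets in every library. The part of free RNA in the TEC levels was not tested.

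Within TEC, the targets were carried by few barcodes. The 10% of TEC barcodes with the most Psmb11 UMIs held 90.7% of them in Foxn1Lin female, all of them in Foxn1Lin male and 97.8% in WT male. The top 10% for each gene in turn held 89.5%, 88.8% and 96.9% of Prss16 UMIs and 86.7%, 91.6% and 93.5% of Tbata UMIs. Foxn1 was spread more widely, with 59.6%, 64.3% and 58.6% of its UMIs in the top 10%, and Ly75 was close to it at 65.0%, 61.0% and 69.9%. These shares depend on how many UMIs a gene has, so they are given as a description.

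Barcodes with at least 5 Psmb11 UMIs, a limit set after the values were seen, showed what this concentration looked like. They were 65 of 475 TEC barcodes in Foxn1Lin female (13.7%, exact interval 10.7 to 17.1%), 5 of 427 in Foxn1Lin male (1.17%, 0.381 to 2.71%) and 63 of 871 in WT male (7.23%, 5.603 to 9.16%). The limit was applied without thinning, so these shares depend on depth. Psmb11-rich barcodes of any class had a median of 26443.5, 23732 and 30656 UMIs, against 11005, 12461 and 16229 in TEC. Inside the Psmb11-rich TEC barcodes Psmb11, which chose them, was at 1149, 614 and 903 CPM. Prss16 there had 4077, 2710 and 4585 CPM against 113, 67.6 and 44.1 CPM in the remaining TEC barcodes. Tbata was at 7702, 3208 and 6721 CPM against 386, 114 and 174 CPM. Foxn1 was at 174, 87.7 and 187 CPM against 58.9, 45.3 and 50.4 CPM, and the Foxn1Lin male value rests on 9 UMIs in 5 barcodes. In Foxn1Lin male, 1 of these barcodes held 153 of 278 Prss16 and 286 of 329 Tbata UMIs. Without it, left out after the data were seen, the other 4 had 1586 CPM of Prss16, 545 of Tbata, 545 of Psmb11 and 76.1 of Foxn1.

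Other genes of cortical TEC were set beside them. Ccl25 was at 3861, 4875 and 4664 CPM against 183, 86.8 and 157 CPM, and Enpep, the aminopeptidase known as the cortical antigen Ly51, at 85.5, 29.2 and 137 CPM against 10.9, 8.33 and 15.7 CPM. The Foxn1Lin male value of Enpep rests on 3 UMIs, and its interval of 6.03 to 85.5 CPM overlapped that of the remaining TEC (6.24 to 10.9). Aire, the regulator of tissue antigens in the medulla, was at 3.25, 58.5 and 16.9 CPM against 263, 148 and 154 CPM. That value of Foxn1Lin male rests on 6 UMIs, 5 of them in the same 1 barcode, which also held 384 of 500 Ccl25 UMIs. Without it Aire was at 12.7 CPM from 1 UMI (interval 0.321 to 70.7) and Ccl25 at 1471 CPM. Epcam was lower in the Psmb11-rich barcodes, at 311, 702 and 360 CPM against 749, 1460 and 877 CPM, and 21 of 110 Psmb11-rich barcodes in Foxn1Lin female had under 2 Epcam UMIs and so lay outside the TEC class. Summed thymocyte markers were at 460, 0 and 301 CPM against 104, 31.4 and 35.4 CPM. The 0 of Foxn1Lin male is a limit, since 0 UMIs in its 5 barcodes allow up to 36.0 CPM. The part of thymocyte RNA in these levels was not tested.

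The next comparison asked whether the targets were higher in TEC barcodes that had a Foxn1 UMI. Each TEC barcode with at least 5000 UMIs was thinned to 5000. This left 100, 52 and 172 Foxn1-positive and 299, 295 and 619 Foxn1-free barcodes at equal depth. Foxn1-free means no Foxn1 UMI after thinning, so such a barcode can hold Foxn1 UMIs that thinning removed. Unthinned, 189, 124 and 343 of all TEC barcodes had a Foxn1 UMI. All 5 targets were higher in the Foxn1-positive barcodes of all 3 libraries. Psmb11 was at 542, 38.5 and 223 CPM in positive barcodes and at 90.3, 12.2 and 45.2 CPM in Foxn1-free ones. Prss16 was at 1910, 288 and 1113 CPM against 417, 76.6 and 207 CPM. Tbata was at 3842, 446 and 1877 CPM against 823, 102 and 373 CPM. The 3 libraries kept their order on both sides of the division, with Foxn1Lin female highest and Foxn1Lin male lowest. Cd83 was at 206, 26.9 and 122 CPM against 47.5, 6.78 and 32.3 CPM, and Ly75 at 448, 177 and 298 CPM against 164, 90.8 and 136 CPM.

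**Figure D2:**
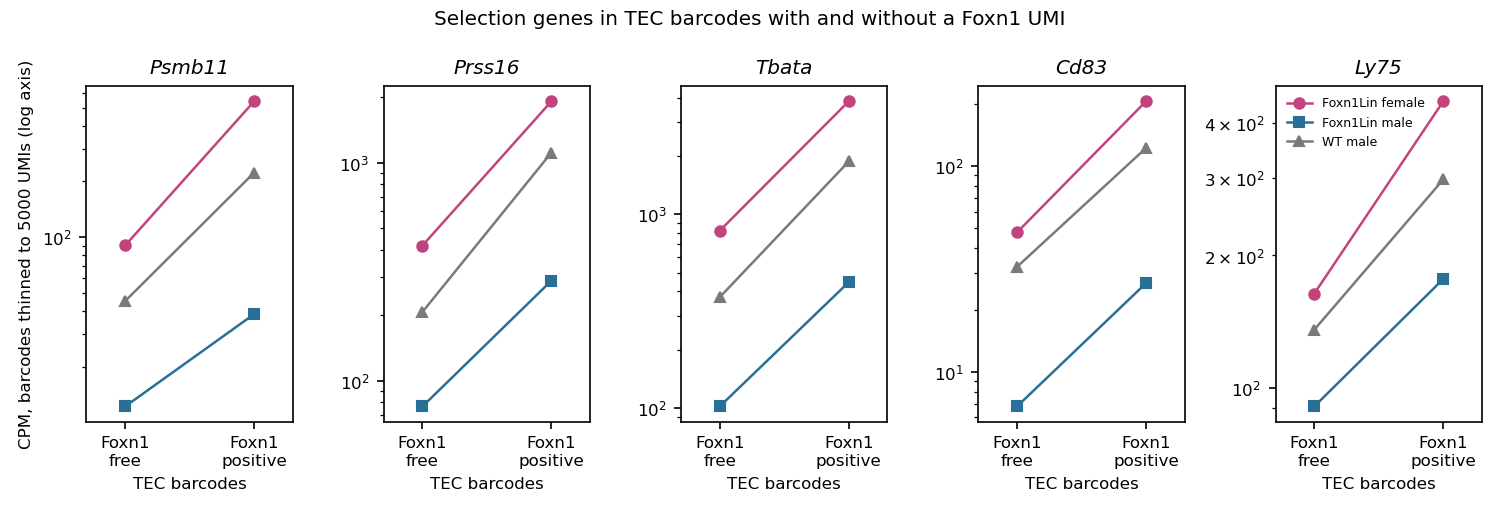
CPM (log axis) of the 5 targets in TEC barcodes without and with a Foxn1 UMI after thinning to 5000 UMIs, with 1 line per library. All 15 lines rise toward the Foxn1-positive side, and Foxn1Lin male is lowest at both ends of each panel.

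In edgeR with the library as block, all 5 targets passed as higher, where 1.96% of 10678 genes were called higher (adjusted p under 0.05). The log2 fold changes were 2.31 ± 0.19 (SE) for Psmb11 (adjusted p = 0.000319), 2.17 ± 0.15 for Prss16 (8.83e-05), 2.20 ± 0.13 for Tbata (4.29e-05), 1.97 ± 0.20 for Cd83 (0.00162) and 1.17 ± 0.16 for Ly75 (0.00559). The 3 values above 2 lay within 1 SE of each other. The median of the 5 targets was 2.17, beside -0.01 over all genes tested. Foxn1 itself formed the division and has no test here. With no library block none of the 5 passed, nor without thinning, and at 2000 UMIs 3 of 5 passed (Psmb11, Prss16 and Tbata). The 5 targets passed with each library left out, with DESeq2, and without barcodes that held hematopoietic UMIs. The Foxn1Lin male values rest on few UMIs, with 10 of Psmb11 and 7 of Cd83 in positive barcodes, and the ratios depend on single barcodes. Without the positive barcode richest in each target the log2 ratios lay from 0.68 (Psmb11, interval -1.10 to 2.17) to 1.53 (Cd83, -0.37 to 3.22). Without the richest barcode of both sides they lay from 0.89 (Ly75, 0.34 to 1.42) to 2.26 (Cd83, 0.21 to 4.24), with Psmb11 at 1.68 (-0.25 to 3.41). Aire, at 376, 208 and 266 CPM in positive barcodes and 189, 85.4 and 108 CPM in Foxn1-free ones, and Cldn3, at 52.0, 65.4 and 47.7 against 165, 106 and 110 CPM, differed between the 2 sides as well, and their part was not tested.

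Of 7 niche genes tested, 4 were higher in Foxn1-positive barcodes in edgeR: Ccl25 (log2 fold change 2.09 ± 0.14), Enpep (1.17 ± 0.28), Cd40, the costimulatory receptor of medullary TEC (1.07 ± 0.19), and Cxcl12 (1.04 ± 0.24). DESeq2 called 3 of these, all but Enpep. In Foxn1Lin male Cxcl12 was at 112 CPM in positive and 102 CPM in Foxn1-free barcodes, and the share of barcodes with a Cxcl12 UMI was 57.0%, 26.9% and 30.8% against 27.1%, 27.8% and 33.3%. Ctsl, a lysosomal protease of cortical TEC, had 0.91 ± 0.24 (adjusted p = 0.0698), and Kitl and Il7 had 0.11 ± 0.18 and 0.06 ± 0.20. Dll4 had too few counts to be tested. Of the 10 other proteasome beta genes, Psmb10, an immunoproteasome subunit, was the only one called, at 1.02 ± 0.17. None of the 5 identity factors passed in edgeR or DESeq2, while 3 had an unadjusted p under 0.05. Their log2 fold changes ran from -0.89 (Hoxa3) to 0.63 (Pax1).

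Detection in the same barcode gave the pairwise picture at equal depth. In Foxn1Lin female, 78 of 85 Psmb11-positive barcodes were also Prss16-positive, where independence would give 25.6. In WT male this held for 67 of 83 (16.9 by independence) and in Foxn1Lin male for 10 of 12 (2.04). Foxn1 and Psmb11 were found together in 44, 4 and 44 barcodes, against 21.3, 1.80 and 18.05 by independence. Psmb11 was thus closer to Prss16 than to Foxn1 in all 3 libraries, with Spearman rho 0.79, 0.38 and 0.59 across barcodes against 0.35, 0.09 and 0.27. These are descriptions over 399, 347 and 791 barcodes of 3 libraries. In sparse counts a gene with more UMIs gives higher values, and the Foxn1Lin male values are weak.

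Likeness of level was measured over 18 points, the 3 libraries in EC, FB, mural barcodes and 3 kinds of TEC. It was the Pearson r of log2 of CPM + 1, compared among 13679 genes with at least 100 UMIs in summed TEC. No p is given because points share libraries. The EC, FB and mural points are low for every member, so a gene restricted to TEC can reach a high r. The 5 genes closest to Psmb11 were Prss16 (r = 0.98), Tbata (0.96), Myo5c, a myosin motor (0.96), Ccl25 (0.96) and Cox8b, a subunit of cytochrome c oxidase (0.96). The 5 closest to Foxn1 were 2610016A17Rik (0.99), Fam83g (0.98), Klhdc8a (0.98), Misp (0.98) and Rac3 (0.97), none of them a member. Psmb11 and Foxn1 had r = 0.85, which placed Psmb11 at rank 835 for Foxn1. Ly75 and Foxn1 had 0.96, at rank 48.

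TEC were then divided by 2 genes that mark the medulla. Aire-positive barcodes (155, 88 and 221) had at least 1 Aire UMI. Ccl21a-high barcodes (50, 74 and 106) had at least 10 UMIs of Ccl21a, a chemokine that draws selected thymocytes into the medulla, and no Aire. The remaining TEC (270, 265 and 544) had no Aire UMI and under 10 of Ccl21a. Ccl21a has near-identical gene copies among which reads can be divided, so its count is uncertain. Aire-positive barcodes were deeper, at a median of 13489, 18134 and 20531 UMIs against 9503, 10905 and 14764 in the remaining TEC.

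Of the 6 members, Foxn1 passed as higher and Psmb11 as lower in Aire-positive TEC against the remaining TEC. These 2 shares, 1 of 6 each, are near the 17.6% and 16.5% of all genes called in those directions, so they are no result about the members as a list. Foxn1 was at 106, 89.7 and 102 CPM in Aire-positive barcodes and at 80.2, 26.2 and 49.7 CPM in the remaining ones. Among the 3 strata it was highest in the Aire-positive barcodes of every library, and these 3 values were close to each other. In Foxn1Lin female the log2 ratio over Ccl21a-high barcodes was 0.30, with an interval of -0.12 to 0.73. The Psmb11-rich TEC barcodes described above, which cut across these strata, had 174, 87.7 and 187 CPM of Foxn1. Over the remaining TEC, the Foxn1 fold change in edgeR was 1.04 ± 0.23 on the log2 scale (adjusted p = 0.0114, over 13768 genes). Without Foxn1Lin male or without WT male it was 0.72 or 1.05 and no longer passed, nor did it without the block (0.94). Psmb11 was at 172, 14.7 and 23.3 CPM in Aire-positive barcodes and at 439, 18.8 and 157 CPM in the remaining ones. It was lower by -1.56 ± 0.52 on the log2 scale (adjusted p = 0.0498), at the edge of the threshold. In Foxn1Lin male its log2 ratio was -0.36 with an interval of -1.08 to 0.32, and 20 of its 25 UMIs in Aire-positive barcodes lay in 1 barcode. Without that barcode, left out after the data were seen, the edgeR fold change was -2.07 (adjusted p = 0.00747). The Psmb11 call was lost without Foxn1Lin female (-1.89) and without WT male (-0.96), under DESeq2, with Scrublet doublets removed, with Epcam of at least 3, with Ccl21a of at least 5 and without the block. After thinning to 5000 UMIs the Psmb11 fold change was -4.46 and passed. There the strata were set again on thinned counts, with 115, 56 and 152 Aire-positive barcodes. The remaining TEC can then hold barcodes that had an Aire UMI before thinning.

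**Figure D3:**
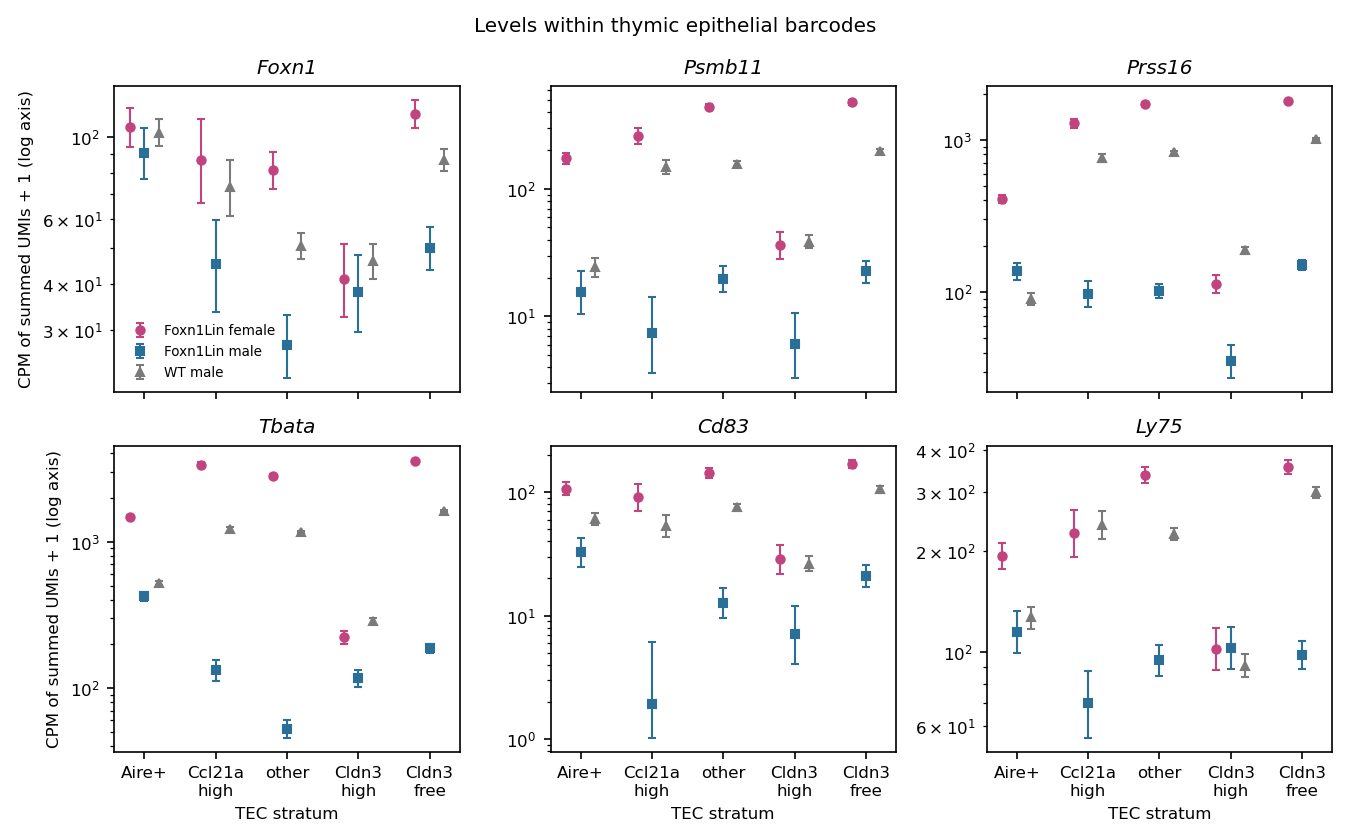
CPM of summed UMIs plus 1 (log axis) of the 6 genes within TEC, with 1 point per library and exact 95% Poisson intervals. Aire+, Ccl21a high and other are exclusive strata, and Cldn3 high and Cldn3 free divide the same TEC another way. Foxn1 is highest in Aire+ among the first 3 strata, and all 6 genes are lower in Cldn3 high than in Cldn3 free except Ly75 in Foxn1Lin male.

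The other 4 members did not pass between Aire-positive and remaining TEC. Prss16 was at 409, 137 and 89.3 CPM in Aire-positive barcodes and at 1722, 101 and 825 CPM in the remaining ones (log2 fold change -1.46, adjusted p = 0.137). It ran the other way in Foxn1Lin male, where 153 of its 233 UMIs in Aire-positive barcodes lay in the same 1 barcode. Without it the log2 ratio of that library was -1.08 in place of 0.44, all 3 libraries were lower in Aire-positive TEC, and Prss16 passed (-2.10, adjusted p = 0.00583 in edgeR). Tbata was at 1480, 422 and 520 CPM against 2820, 51.8 and 1163 CPM, opposite in Foxn1Lin male also without that barcode (log2 ratio 2.32 in place of 3.03), and Cd83 at 106, 31.6 and 59.8 CPM against 142, 11.7 and 74.6 CPM. Ly75 was at 193, 114 and 126 CPM against 336, 93.2 and 224 CPM. Without Foxn1Lin male, Prss16 (-2.58) and Tbata (-1.04) passed as lower in Aire-positive TEC. After thinning to 5000 UMIs Prss16 passed too (-3.19).

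Markers of blood cells moved with Aire. All 5 pan-hematopoietic markers were detected in Aire-positive barcodes and summed to 1253, 1429 and 1034 CPM, against 441, 138 and 177 CPM in the remaining TEC. The 8 dendritic or macrophage markers summed to 466, 533 and 304 CPM against 169, 50.4 and 46.3 CPM, and Itgax and Tyrobp were at 0 in the Aire-positive barcodes of Foxn1Lin male. Without barcodes that held a UMI of Ptprc, Cd3e, Cd3d, Cd3g, Lck, Cd79a or Tyrobp, the log2 fold change was 1.24 for Foxn1 and -2.61 for Psmb11, and both passed.

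Between Ccl21a-high and remaining TEC none of the 6 members passed in edgeR, where 3.09% of 13768 genes were called in either direction. At an unadjusted p under 0.05 the count was 0 too, as it was under DESeq2. Foxn1 was at 85.8, 44.2 and 72.1 CPM in Ccl21a-high barcodes (log2 fold change 0.41 ± 0.24), and Psmb11 at 259, 6.44 and 147 CPM (-0.50 ± 0.49). Cd83 in Foxn1Lin male fell to 1 UMI, or 0.920 CPM with an interval of 0.0233 to 5.13. After thinning to 5000 UMIs, Psmb11 (-1.57) and Cd83 (-2.13) passed as lower. Between Aire-positive and Ccl21a-high TEC none of the 6 passed either, where 35.6% of genes were called in either direction. At an unadjusted p under 0.05 the count was 1 (Foxn1), and DESeq2 called 0. Foxn1 had a log2 fold change of 0.63 ± 0.24 (adjusted p = 0.0782) and Psmb11 of -1.05 ± 0.54 (0.169). Without the same 1 barcode Psmb11 (-1.47) and Prss16 (-1.88) passed as lower. The number of members called there rose to 4 after thinning to 5000 UMIs (Foxn1 0.79, Psmb11 -2.89, Prss16 -2.02 and Cd83 2.33).

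Niche genes were also compared between Aire-positive and remaining TEC. Cd40 was higher by 3.47 ± 0.39 on the log2 scale. Of the 8 niche genes, 5 were lower, among them Cxcl12 (-2.78 ± 0.47), Ctsl (-2.46 ± 0.32) and Enpep (-1.43 ± 0.30), while Ccl25 had 0.26 ± 0.76 and did not pass. Pax1 (-1.99 ± 0.26) and Eya1 (-1.48 ± 0.22) were among 4 of 5 identity factors that were lower. Psmb7 (0.98 ± 0.16) and Psmb8 (0.81 ± 0.21) were the 2 proteasome beta genes called, both higher.

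Cldn3, a tight junction gene, gave another division of TEC, with at least 2 Cldn3 UMIs (118, 83 and 246 barcodes) against none (303, 320 and 544). The study proposes it, with other markers, for aaTEC1, an age-associated TEC state, and also counts it among TEC precursor markers. Cldn3-high barcodes were deeper, at a median of 12551.5, 17374 and 21812 UMIs against 11330, 10844 and 12996. Of Psmb11-rich TEC barcodes 6.15%, 0% (of 5 barcodes) and 14.3% had a Cldn3 UMI, against 41.0%, 25.4% and 39.4% of other TEC. The part of depth and of these barcodes was not tested. Psmb11 was at 35.3, 5.03 and 37.5 CPM in Cldn3-high TEC and at 476, 21.5 and 195 CPM in Cldn3-free TEC. Prss16 was at 112, 34.7 and 188 CPM against 1780, 151 and 1011 CPM, and Tbata at 220, 115 and 287 CPM against 3557, 186 and 1615 CPM. All 3 were lower in Cldn3-high TEC of each library. For Tbata in Foxn1Lin male this rests on 1 Cldn3-free barcode with 286 of 786 UMIs, without which the log2 ratio was -0.044 (interval -0.29 to 0.19) in place of -0.69, and -0.55 (-0.82 to -0.28) with the richest barcode of both sides left out. Cd83 was at 27.7, 6.15 and 25.4 CPM against 169, 20.1 and 104 CPM, Foxn1 at 40.2, 36.9 and 45.1 CPM against 115, 48.9 and 85.8 CPM, and Ly75 at 101, 102 and 89.8 CPM against 355, 96.8 and 298 CPM. Only Ly75 in Foxn1Lin male ran the other way. Psmb11 (-2.86 ± 0.34 on the log2 scale, adjusted p = 0.00899), Prss16 (-2.85 ± 0.39, 0.0122) and Cd83 (-2.17 ± 0.21, 0.00547) passed in edgeR, where 3.46% of 14383 genes were called lower. Foxn1 (-0.95, adjusted p = 0.0585), Tbata (-2.42, 0.0722) and Ly75 (-1.19, 0.116) did not. Without WT male 0 members passed, without Foxn1Lin male all 6 did, as under DESeq2, and without the block 0 did. Over all alternatives the log2 fold changes of the 3 called members kept their sign, at -3.31 to -2.22 for Psmb11, -3.27 to -2.24 for Prss16 and -2.31 to -1.87 for Cd83. Thymocyte markers summed to 90.1, 17.3 and 54.8 CPM in Cldn3-high TEC and 258, 28.3 and 85.8 CPM in Cldn3-free TEC. Other blood cell markers ran the opposite way, with pan-hematopoietic markers at 1061, 846 and 472 CPM in Cldn3-high against 507, 294 and 316 CPM in Cldn3-free TEC, and dendritic or macrophage markers at 453, 250.5 and 143 against 173, 130 and 86.1 CPM. Their part was not tested. Without barcodes that held hematopoietic UMIs, the 3 calls held and Foxn1 also passed as lower.

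Among the niche genes, 6 of 8 were lower in Cldn3-high TEC, led by Ccl25 (-2.74 ± 0.21) and Cxcl12 (-2.36 ± 0.30). None of the 10 other proteasome beta genes passed in edgeR, while 4 had an unadjusted p under 0.05 and DESeq2 called 1. Their log2 fold changes lay between -0.99 (Psmb10) and 0.27. Trp63, which keeps epithelial progenitors, was the only identity factor called, at -1.73 ± 0.14.

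Between libraries the members kept 1 order in TEC, with Foxn1Lin female highest, WT male next and Foxn1Lin male lowest for all 6. Psmb11 was 20.6-fold higher in Foxn1Lin female than in Foxn1Lin male (counting interval 16.9 to 25.5), Tbata 14.6-fold, Prss16 10.9-fold and Cd83 8.13-fold. Ly75 was 2.87-fold and Foxn1 1.96-fold higher. Past 4-fold in either direction lay 2.36% of 13679 genes in that pair, and 4 of the 6 members did. Foxn1Lin female over WT male gave 1.34-fold (Foxn1) to 2.76-fold (Psmb11), with 0 members past 4-fold and 1.9% of genes. Foxn1Lin male over WT male gave ratios of 0.134 (Psmb11) to 0.684 (Foxn1), with Psmb11, Tbata, Prss16 and Cd83 past 4-fold and 1.07% of genes. The intervals cover counting error only. Psmb11-rich barcodes were 13.7%, 1.17% and 7.23% of TEC in Foxn1Lin female, Foxn1Lin male and WT male. They held 2125 of 2191, 63 of 101 and 2034 of 2135 Psmb11 UMIs in TEC, in Foxn1Lin male in only 5 barcodes. Inside them, where Psmb11 chose the barcodes, it was at 1149, 614 and 903 CPM, and Prss16 at 4077, 2710 and 4585 CPM. The part of their share in the ratios was not tested. The lineage trace pair shared genotype and differed in sex and library, the male pair shared sex and differed in genotype and library, and the remaining pair differed in all of these, so what differs within a pair cannot be told apart. Levels of free RNA differed too, and their part was not tested. Psmb5, the common counterpart of Psmb11, was at 194, 134 and 109 CPM in TEC.

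**Figure D4:**
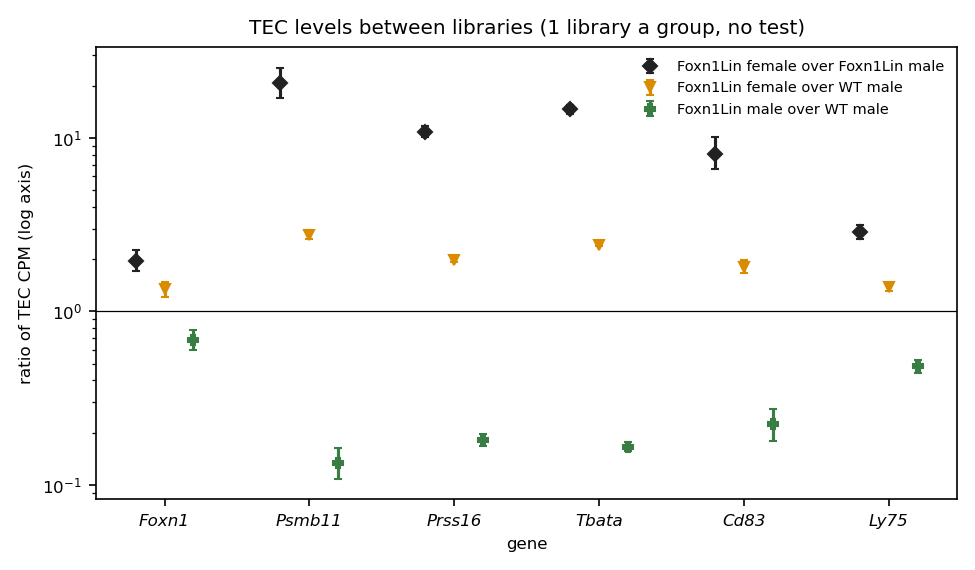
Ratio of TEC CPM between libraries (log axis) for the 6 genes, with exact 95% intervals for counting error and a line at 1. The 4 genes Psmb11, Prss16, Tbata and Cd83 reach 8.13 to 20.6 in Foxn1Lin female over Foxn1Lin male, while Foxn1 and Ly75 stay at 1.96 and 2.87.

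In the lineage trace libraries the members were also given by the presence of the reporter after thinning to 5000 UMIs. In Foxn1Lin female, 328 TEC barcodes had a reporter UMI and 71 had none. Psmb11 was at 241 CPM in the former and 28.2 CPM in the latter, Prss16 at 936 and 124 CPM, and Tbata at 1834 and 406 CPM. Foxn1 was at 78.7 and 56.3 CPM there, Cd83 at 95.7 and 47.9 CPM and Ly75 at 255 and 141 CPM. All 6 were thus higher with the reporter. For Foxn1 the value without it rests on 20 UMIs, and its interval of 34.4 to 87.0 CPM contains 78.7. In Foxn1Lin male, with 319 and 28 barcodes, Foxn1 was at 36.4 CPM in barcodes with a reporter UMI and 50.0 CPM in those without, the latter from 7 UMIs. Psmb11 was at 17.6 CPM with the reporter, and 0 UMIs lay in the 28 barcodes without it, which allow up to 26.3 CPM (upper bound of the exact Poisson interval), so no difference was detectable at this depth. Prss16 was at 117 and 7.14 CPM and Tbata at 159 and 85.7 CPM, with and without it, from 1 and 12 UMIs without. Cd83, at 7.52 and 35.7 CPM, and Ly75, at 98.4 and 164 CPM, were lower with the reporter, like Foxn1. The Cd83 and Ly75 values without it rest on 5 and 23 UMIs. For Foxn1 the interval without it, 20.1 to 103 CPM, contains the 36.4 CPM with it. With 2 libraries no test was made.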

How the data were processed

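Gene counts were analysed from 3 single-cell libraries. Per the labels and file headers, the deposited UMI counts were made by the authors with Cell Ranger 7.0.1 on GRCm38 with reporter sequences added. Reads in introns were counted (21.7 to 27.5%, a percentage of reads from the Cell Ranger metrics deposited by the authors), which adds unspliced RNA to a gene's level. From these counts, barcodes with at most 1000 genes and at least 20% mitochondrial UMIs were removed, classes were set by marker UMIs, and doublets were not removed except in an alternative with Scrublet. CPM is UMIs of a gene per 1000000 UMIs of the group, with exact Poisson intervals that cover counting error only. Counts summed per library and group were tested with edgeR 4.0.16 (quasi-likelihood test, library as block, Benjamini-Hochberg adjustment over all genes tested, threshold 0.05), with DESeq2 1.42.0 as an alternative. The fits were tested on simulated data. The p-values measure the spread between 3 libraries, each a pool of animals and each of another genotype or sex. The members and the gene lists were chosen with earlier results of these data known. All 6 members and the genes of the fixed lists could be named, together with the 5 genes closest in level to Foxn1 and to Psmb11. Alternatives were another tool, other UMI limits, no block, no low-count filter, other depths of thinning, and leaving out barcodes or libraries. In the thinned alternative the Aire and Ccl21a strata were set again on thinned counts, so its groups differ from the main ones. Leaving out single barcodes was chosen after seeing the data. Sequences came from RefSeq (GRCm38.p6), and promoters of Prss16 and Cd83 were not used here. A gene of the fixed lists is not reported here.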

Additional observations from a re-analysis of the deposited data

Results flagged for a closer look

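In 7 of 24 comparisons within TEC, Foxn1Lin male had a ratio above 0 and both other libraries one below it, with counting intervals of libraries on opposite sides of 0. In 3 more the signs also differed, but no interval lay above 0. The values are log2 ratios of CPM within each library, and the difference between libraries was not tested. Between Aire-positive and remaining TEC, Tbata was 3.03 in Foxn1Lin male (interval 2.79 to 3.26), against -0.93 in Foxn1Lin female and -1.16 in WT male. Prss16 was 0.44 (0.19 to 0.68) against -2.07 and -3.21 in the same order. Cd83 was 1.43 (0.83 to 2.05) against -0.42 and -0.32, and Ly75 was 0.29 (0.02 to 0.54) against -0.80 and -0.83. Between Aire-positive and Ccl21a-high TEC, Tbata was 1.69 (1.43 to 1.96) in Foxn1Lin male against -1.18 and -1.22. Prss16 was 0.50 (0.16 to 0.85) against -1.65 and -3.09, and Ly75 was 0.72 (0.33 to 1.12) against -0.22 and -0.92.

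The ratios of Foxn1Lin male rest on few barcodes. A single Aire-positive barcode held 153 of 233 Prss16 UMIs, 286 of 720 Tbata UMIs and 20 of 25 Psmb11 UMIs of its stratum. It had 5 Aire and 14 Ccl21a UMIs, none of the hematopoietic genes used as a filter, and no Scrublet call. Left out after the data were seen, it turned Prss16 to -1.08 (interval -1.45 to -0.73) against the remaining TEC and to -1.02 (-1.46 to -0.59) against Ccl21a-high TEC, so in sign both then ran with the other libraries. Tbata stayed above 0 without it, at 2.32 and 0.98. Without the Aire-positive barcode that held most UMIs of the gene, Cd83 was 0.66 (-0.06 to 1.36) against the remaining TEC, and Ly75 was 0.047 (-0.23 to 0.32) there and 0.48 (0.08 to 0.90) against Ccl21a-high TEC. With the richest barcode of each group left out on both sides, Cd83 was 0.98 (0.23 to 1.73) and Ly75 0.13 (-0.15 to 0.40) and 0.65 (0.23 to 1.08). Prss16 was then -0.88 (-1.25 to -0.52) against the remaining TEC and -0.63 (-1.10 to -0.16) against Ccl21a-high TEC, and Tbata 2.58 and 1.94.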

How the results depend on the processing

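All 6 members stayed higher in TEC than in EC, FB and mural barcodes under every alternative run, and 14 of 18 TEC levels stayed above empty droplets. Of 634 member log2 fold changes under alternatives, 562 kept direction and side of the threshold, 26 came to pass it, 28 no longer did and 18 changed sign. Of 36 TEC levels 5 moved beyond their counting interval, and of 54 TEC shares 18 did. The causes were not tested.

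Members called between Aire-positive and remaining TEC fell from 2 to 1 with Ccl21a of at least 5, DESeq2, Epcam of at least 3 or Scrublet doublets removed, to 0 without the library block, rose to 3 with no low-count filter, after thinning to 5000 UMIs and without the Prss16-rich barcode (an alternative chosen after seeing the data), and ranged from 0 to 3 with 1 library left out. Between Ccl21a-high and remaining TEC the 0 became 2 after thinning to 5000 UMIs. Between Aire-positive and Ccl21a-high TEC the 0 became 2 with Aire of at least 2, 4 after thinning to 5000 UMIs, 1 without hematopoietic barcodes and 2 without the Prss16-rich barcode, and ranged from 0 to 2 with 1 library left out. Between Cldn3-high and Cldn3-free TEC the 3 became 6 with DESeq2, 6 with no low-count filter and 0 without the block, and ranged from 0 to 6 with 1 library left out. Between Foxn1-positive and Foxn1-free TEC the 5 became 0 without the block, 0 without thinning and 3 after thinning to 2000 UMIs.

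Signs changed as follows, in log2 fold changes that did not pass in the main setting. Of these, Tbata passed as lower without Foxn1Lin male, at -1.04 for Aire-positive against remaining TEC and -1.23 against Ccl21a-high TEC. For Aire-positive against remaining TEC, Tbata became -0.70 without the block and -0.41 after thinning, with a range of -1.04 to 1.23 with 1 library left out, and Cd83 became -0.18 without the block, with a range of -0.36 to 0.49. For Ccl21a-high against remaining TEC, Tbata became -0.25 after thinning and Prss16 0.0738 without hematopoietic barcodes. For Aire-positive against Ccl21a-high TEC, Tbata became -0.25 with Aire of at least 2, -0.087 with Ccl21a of at least 5, -0.0359 with Epcam of at least 1, -0.94 without the block, -0.17 after thinning, -0.18 without hematopoietic barcodes and -0.30 without the Prss16-rich barcode, with a range of -1.23 to 0.66. There Ly75 became 0.0434 with Ccl21a of at least 20 and 0.24 after thinning, with a range of -0.62 to 0.28.

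Over all genes, calls moved by over 1.5 times in these cases. For Foxn1-positive against Foxn1-free TEC, 462 became 224 with DESeq2, 4 without the block, 1017 with no low-count filter, 2 without thinning, 66 at 2000 UMIs and 204 without WT male. For Ccl21a-high against remaining TEC, 425 became 971 with DESeq2, 208 without the block, 1149 with no low-count filter, 692 after thinning, and 226, 67 and 6 without Foxn1Lin female, Foxn1Lin male and WT male. For Cldn3, 1240 became 376 without the block, 2099 with no low-count filter, 753 without Foxn1Lin female and 165 without WT male. Without Foxn1Lin male and WT male, Aire-positive against remaining TEC went from 4688 to 2665 and 1660 (3103 without the block), Aire-positive against Ccl21a-high from 4899 to 3096 and 2058, and TEC against mural from 8394 to 5052 and 5380. The tests compared barcodes of the same library, with the library as block, and the values without that block are given above. Between libraries no pairing could be made, since each group had 1 library.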
